A study of Gallus gallus with 8 samples.

Results

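Broiler liver held 59 genes without a gene symbol whose RNA was much lower 2 h after lipopolysaccharide (LPS) than after buffer. They were taken from the 1725 entries, among 13427 genes in the expression table, that carry only an Ensembl chicken identifier in the place of a name. They were chosen by these levels: a gene was included where its mean over the 4 input libraries was at least 1 FPKM (fragments per kilobase of transcript, scaled to the mapped fragments of a library). Both LPS values also had to lie below both control values, and the mean of log2(FPKM + 1) had to be lower after LPS by 1.5 or more. The members are thus selected on the contrast of LPS with control, and their levels are given below as a description. Limma calls and p-values of these genes use the same contrast and support nothing about them; they are printed to show the background and where single libraries decide a value.

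The libraries came from chicken livers collected at 21 days of age. LPS birds had received LPS of Escherichia coli into the body cavity at 1 mg/kg 2 h earlier, and control birds the same volume of phosphate-buffered saline. Polyadenylated RNA was sequenced as input and after pull-down with an antibody against N6-methyladenosine (m6A), which gave 8 libraries in 4 groups of 2, namely LPS input, control input, LPS IP and control IP. Whether both libraries of a group are from different birds is not said in the labels, so the p-values below measure only the spread between these libraries, which may be technical.

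LPS is a component of the outer membrane of Gram-negative bacteria that is sensed by Toll-like receptor 4, and the liver answers it by making acute phase proteins while many transcripts of its metabolic enzymes decline. m6A is a methyl mark on adenosines inside messenger RNA, often found near the stop codon and in the 3′ UTR, and it bears on the stability and translation of the transcript. An entry with an Ensembl identifier alone is a gene model for which the annotation gives no approved symbol, which does not mean that it makes no known protein.

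The Description column told little. It read "Uncharacterized protein" for 47 of the 59 genes and was empty for 9. The remaining 3 entries were an XK-related protein (ENSGALG00000006637), a dimethylaniline monooxygenase [N-oxide-forming] (ENSGALG00000003022) and a beta-galactosidase (ENSGALG00000001604). "Uncharacterized protein" stood for 79.7% of the 59 genes, against 72.9% of the 926 unnamed genes that averaged 1 FPKM or more. A Gene Ontology (GO) term was attached to 33 of the 59 genes, or 55.9%, against 67.0% of those 926 unnamed genes. For 6 of the 33 the sole named term was protein binding, and 1 had term numbers with no name. A KEGG pathway entry was given for 5 genes, and 58 of the 59 had a single transcript in the table.

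The mean level of the 59 genes ran from 0.105 to 89.9 FPKM in LPS liver (median 2.26), against 2.67 to 366 FPKM in control liver (median 16.7). LPS liver held between 0.531% and 36.5% of the control level, with a median of 15.4%. Summed over the 59 genes, the level was 638 and 428 FPKM in the LPS libraries, against 2873 and 2517 FPKM in the control libraries. In bulk tissue, fewer cells of a type and less RNA per cell cannot be told apart.

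Differences on the log2(FPKM + 1) scale, LPS minus control, ran from −4.72 to −1.50 with a median of −2.01. They were −3 or beyond in 10 genes, −2 or beyond in 31 and between −1.5 and −2 in the other 28. The scale understates the change of genes with low values. Of the 59 genes, 8 had a control mean of 100 FPKM or more, 27 lay between 10 and 100 FPKM and 24 lay under 10 FPKM. After LPS, 19 of the 59 averaged less than 1 FPKM.

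Limma with Benjamini-Hochberg adjustment over all 9484 genes that averaged 1 FPKM or more called 31.4% of them lower and 10.7% higher in LPS liver at an adjusted p under 0.05. All 59 genes were called lower, which follows from how they were chosen. Among the 926 unnamed genes 28.1% were called lower, against 31.8% of the 8558 genes with a symbol. Both LPS values lay below both control values in 55.8% of all tested genes. A fall of at least 1.5 without overlap was seen in 5.25% of all tested genes, in 6.37% of the unnamed genes and in 5.13% of the genes with a symbol (439 genes). The mirrored rule, for higher levels in LPS liver, found 62 unnamed genes. The median log2 difference was −0.34 over all tested genes and −0.29 over the tested unnamed genes, so the typical gene was also lower. With the libraries scaled to equal medians over the tested genes, the median of the 59 genes was −1.81 and the smallest fall −1.24.

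**Figure D1:**
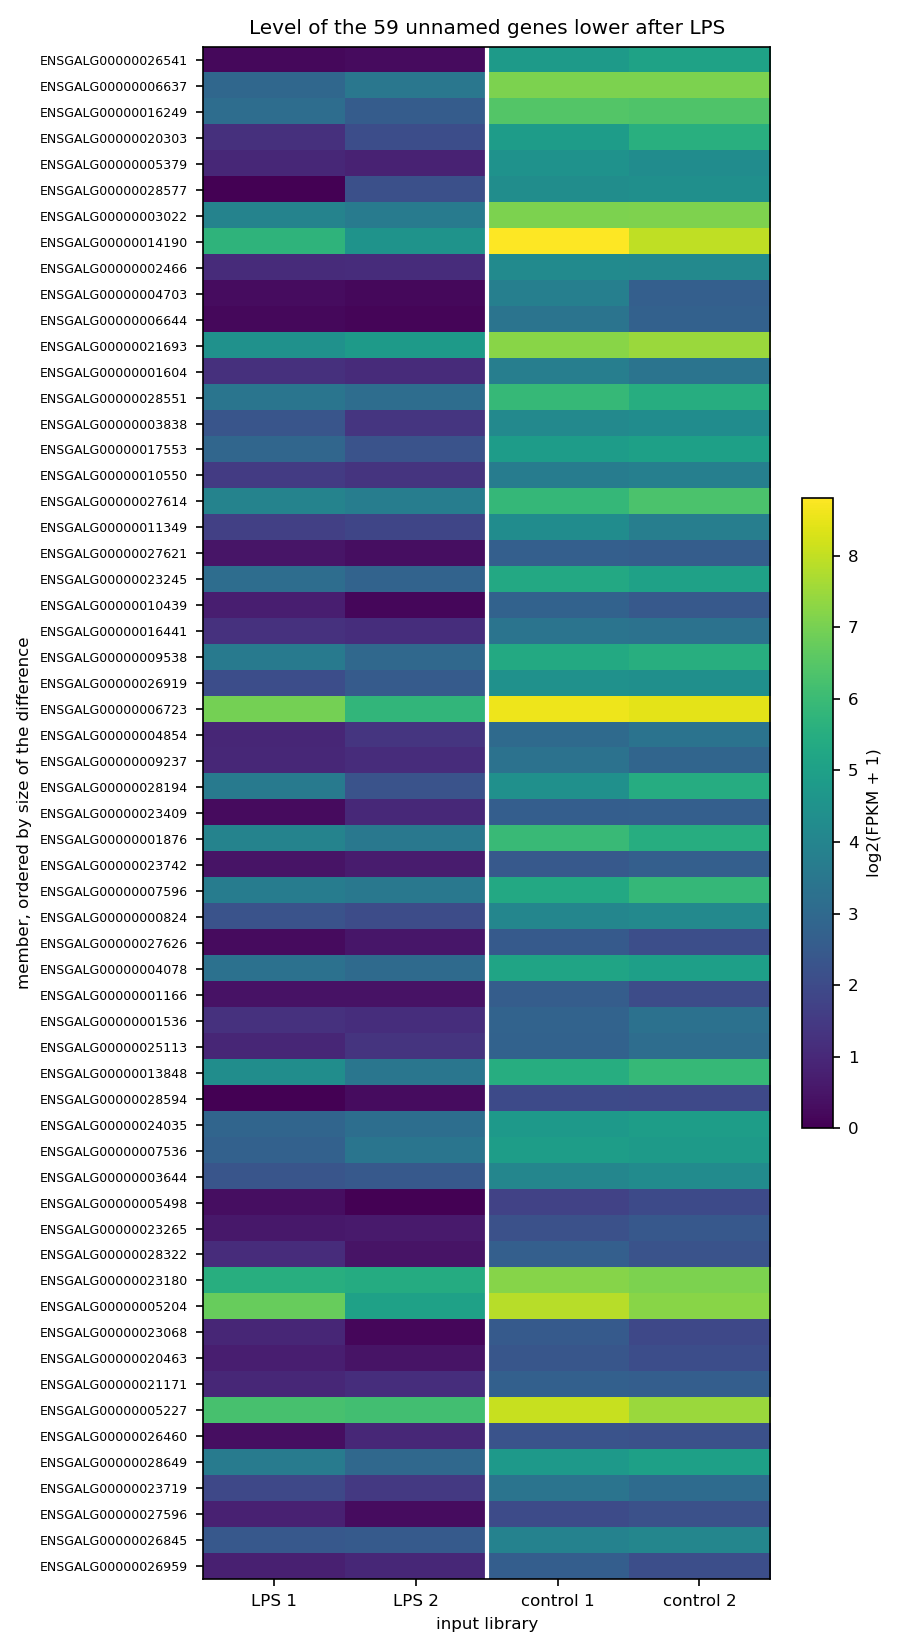
Heat map of log2(FPKM + 1) for the 59 genes (rows, largest fall at the top) in the 2 LPS and the 2 control input libraries (columns), on 1 colour scale from dark (0) to yellow. In every row both LPS cells are darker than both control cells, which the choice of genes requires; the yellow cells belong to ENSGALG00000014190 and ENSGALG00000006723.

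**Figure D2:**
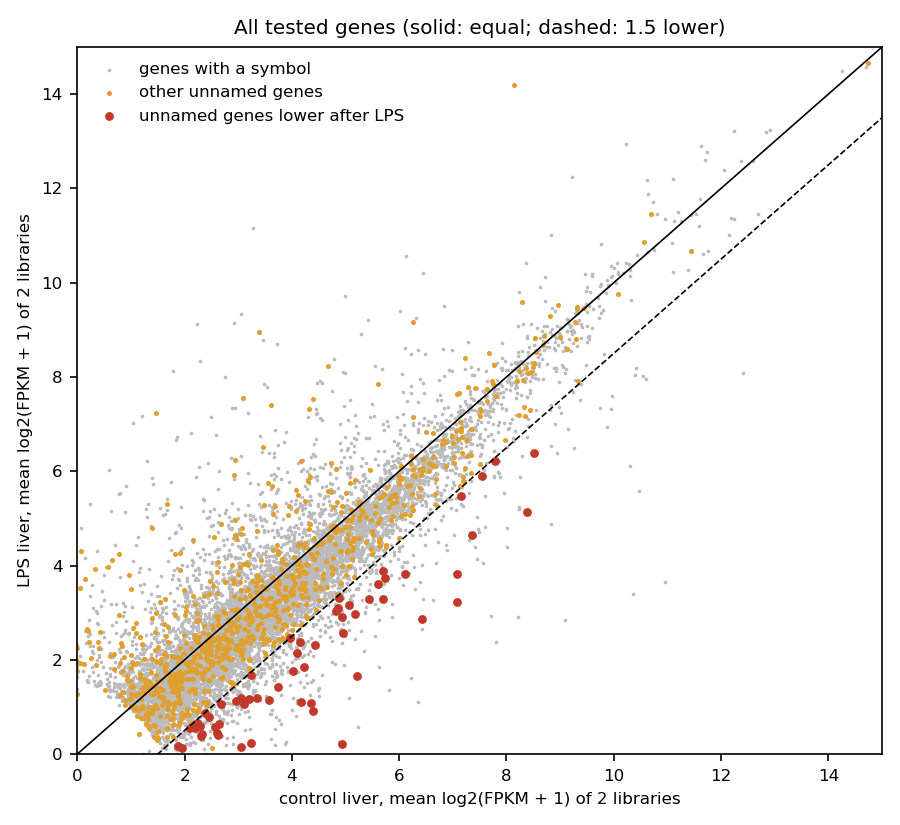
Mean log2(FPKM + 1) of the 2 LPS libraries (vertical axis) against that of the 2 control libraries (horizontal axis) for the 9484 tested genes, with genes with a symbol in grey, other unnamed genes in orange and the 59 genes in red. The red points lie on or below the dashed line, which marks a difference of −1.5, and reach over most of the range of control levels.

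Relative to control library 1, depth read from the smallest steps of the FPKM values was 0.818 in LPS library 1, 0.891 in LPS library 2 and 0.858 in control library 2. Each of these ratios was read from just 10 to 12 genes, and absolute read totals were not used here. Of 10 lists of cell type markers, hepatocyte markers summed to 92616 and 91460 FPKM in LPS libraries, against 83166 and 81800 FPKM in control libraries, with 2 lower and 4 higher of 14 tested (1 lower and 6 higher at equal medians). All 9 tested macrophage markers were called lower (6 at equal medians), with sums of 444 and 422 FPKM in LPS libraries, against 839 and 899 FPKM in control libraries. Of endothelial markers 4 of 9 were lower (2 at equal medians), with sums of 66.1 and 50.1 FPKM in LPS libraries, against 101 and 88.3 FPKM in control libraries. Lower too were 3 of 10 T and NK cell markers (0 lower and 2 higher at equal medians), and 2 of 7 stellate cell and fibroblast markers (2 lower and 1 higher at equal medians). Thrombocyte markers summed to 67.1 and 49.1 FPKM in LPS libraries, against 12.8 and 17.1 FPKM in control libraries, with 1 lower and 2 higher of 4 tested (0 lower and 2 higher at equal medians). In the lists for heterophils, B cells, erythrocytes and bile duct, 0 or 1 marker was lower and 0 or 1 higher. Just 4 heterophil, 4 B cell, 2 erythrocyte and 3 bile duct markers were tested. At equal medians 0 heterophil markers were lower and 2 higher, while the other lists still had 0 or 1 each way. No matched marker was at 0 in all 4 libraries. The part of these cell types in the levels of the 59 genes was not tested.

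The largest fall was that of ENSGALG00000026541, which carries protein binding as its sole named GO term. It had 0.130 and 0.185 FPKM in LPS libraries, against 26.9 and 32.4 FPKM in control libraries, which is 188-fold lower (log2 difference −4.72). The LPS level was close to 0, while the control level placed the gene 21st among the 59.

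ENSGALG00000006637, the XK-related protein, had 6.77 and 10.3 FPKM in LPS libraries, against 133 and 134 FPKM in control libraries (log2 difference −3.85). XK-related proteins are membrane proteins, and some of them scramble phospholipids between the leaflets of the plasma membrane. The sole other tested gene with the symbol stem XKR, XKR8, had a log2 difference of −0.00 and was not called.

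ENSGALG00000020303, which has no GO term, had 1.31 and 3.28 FPKM in LPS libraries, against 28.3 and 45.7 FPKM in control libraries (log2 difference −3.56). It lies on chromosome 4 at 5117462 to 5118859, on the plus strand and 2616 bases before the XK-related gene, which spans 5121475 to 5124744 on the same strand. Coordinates here are those of the deposited peak lists, whose genome build is not given in the sources used here. Both genes of this pair were more than 15-fold lower after LPS by their means (16.1-fold and 15.7-fold).

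ENSGALG00000016249, also without a GO term, had 7.95 and 4.96 FPKM in LPS libraries, against 87.6 and 82.7 FPKM in control libraries (log2 difference −3.56). ENSGALG00000005379, whose GO numbers have no name, had 0.957 and 0.801 FPKM in LPS libraries, against 21.8 and 18.7 FPKM in control libraries (−3.49). In both genes the libraries of a group lay close together compared with the distance between the groups.

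ENSGALG00000028577 was less even. It was listed at 0 and 3.46 FPKM in LPS libraries, against 18.8 and 20.2 FPKM in control libraries (log2 difference −3.28, or −2.20 without LPS library 1). It is 1 of 3 genes listed at 0 in an LPS library. ENSGALG00000028594 had 0 and 0.211 FPKM in LPS libraries, against 2.93 and 2.80 FPKM in control libraries, and ENSGALG00000005498 had 0.252 and 0 FPKM, against 2.36 and 2.98 FPKM. No gene was at 0 in both LPS libraries, and none was at 0 in a control library.

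The GO classes used here were drawn up after the values were known. Of the 59 genes, 10 were classed as enzymes, with log2 differences from −3.26 to −1.57 and a median of −2.14. For ENSGALG00000014190 the term used, lipid metabolic process, names a process and not an enzyme activity.

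ENSGALG00000006723, with isopentenyl-diphosphate delta-isomerase activity, had the highest control level of the 59 genes. That enzyme interconverts the 5-carbon units from which cholesterol and other isoprenoids are built. Its level was 125 and 55.3 FPKM in LPS libraries, against 388 and 345 FPKM in control libraries (log2 difference −2.12). ENSGALG00000013848, with mevalonate kinase activity, an earlier step of the same route, had 18.8 and 9.95 FPKM in LPS libraries, against 43.6 and 59 FPKM in control libraries (−1.81). In both genes LPS library 2 was the lowest of the 4 libraries.

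Both carry the KEGG entry for terpenoid backbone biosynthesis, which 13 other tested genes share. Of these 13, 4 were called lower, 2 higher and 7 neither way (3 lower and 2 higher at equal medians). FDPS, which makes farnesyl diphosphate, had a log2 difference of −2.40 (limma adjusted p = 0.000724). MVD, mevalonate diphosphate decarboxylase, stood at −1.89 (adjusted p = 0.000498). DHDDS, a subunit of the enzyme that makes dolichol precursors, stood at −0.54, a call that was lost at equal medians. HMGCS1, a cytosolic synthase of the mevalonate route, went the other way at 2.05 (adjusted p = 0.000161), and TKT, a pentose phosphate enzyme, stood at 0.54. The pathway list was chosen after the values were known, as were the other lists of genes with a shared annotation below.

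ENSGALG00000014190, whose GO term is lipid metabolic process, had 52.6 and 21.9 FPKM in LPS libraries, against 448 and 248 FPKM in control libraries (log2 difference −3.26). Library 1 was the higher in both groups. ENSGALG00000006644, with long-chain fatty acid-CoA ligase activity, which activates fatty acids for further use, had 0.143 and 0.0758 FPKM in LPS libraries, against 9.41 and 5.59 FPKM in control libraries (−2.90). Of the 6 other tested genes with that term, ACSL5 (−3.22) and ACSL3 (−0.95) were called lower and ACSL1 (1.35) and ACSBG2 (0.71) higher, also at equal medians. Genes with this activity thus moved both ways.

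ENSGALG00000005227, with glycerone kinase activity, phosphorylates dihydroxyacetone according to its term. It had 75.4 and 70.5 FPKM in LPS libraries, against 270 and 177 FPKM in control libraries (log2 difference −1.57).

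ENSGALG00000003022, the dimethylaniline monooxygenase, belongs by its description to the flavin-containing monooxygenases, which oxidise nitrogen and sulphur atoms of drugs and diet compounds. It had 14.4 and 11.8 FPKM in LPS libraries, against 132 and 136 FPKM in control libraries (log2 difference −3.26). Among other tested genes with that activity, the unnamed ENSGALG00000001723 (−1.20, adjusted p = 0.0102) was called lower by limma, also at equal medians, and FMO4 (−0.52) was not called. Reads split between such relatives would make their separate values uncertain. ENSGALG00000001723 lies 1006 bases from ENSGALG00000003022 on the same strand, and whether both entries belong to 1 gene was not tested. Of the 15 other tested genes of the KEGG entry for drug metabolism by cytochrome P450, 9 were called lower and 1 higher (5 and 1 at equal medians).

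ENSGALG00000001604, the beta-galactosidase, which cleaves terminal galactose from sugars, had 1.35 and 1.11 FPKM in LPS libraries, against 12.8 and 9.39 FPKM in control libraries (log2 difference −2.42). GLB1 (−0.03) and GLB1L (0.06), which share its activity, were not called. ENSGALG00000009538, with an oxidoreductase term, had 11.1 and 6.83 FPKM in LPS libraries, against 39.7 and 45.1 FPKM in control libraries (−2.15). ENSGALG00000007536, with the term for photolyase, a light-driven DNA repair enzyme, had 5.73 and 9.80 FPKM in LPS libraries, against 29.3 and 26.9 FPKM in control libraries (−1.77). ENSGALG00000004078, with ATP-dependent peptidase activity, had 8.69 and 7.23 FPKM in LPS libraries, against 34.2 and 30.7 FPKM in control libraries (−1.91). Of the 6 other genes with that peptidase term, 3 were called lower and 0 higher, but 1 lower and 2 higher at equal medians.

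Membrane and transport terms covered 4 genes, the XK-related protein among them, with log2 differences from −3.85 to −1.99 and a median of −2.73. ENSGALG00000002466, with transmembrane transporter activity, had 1.12 and 1.15 FPKM in LPS libraries, against 17.5 and 16.7 FPKM in control libraries (−3.08), and its libraries were nearly equal within each group. ENSGALG00000017553, with a term for intracellular protein transport, had 6.52 and 3.72 FPKM in LPS libraries, against 28.5 and 31.2 FPKM in control libraries (−2.37). ENSGALG00000007596, with lactate transporter activity, had 12 and 10.4 FPKM in LPS libraries, against 39.1 and 57.6 FPKM in control libraries (−1.99). The 3 other tested genes annotated with that activity did not move as a set: SLC16A1 was called lower (−1.18), SLC16A5 higher (2.36) and SLC16A12 not at all (−0.59), with the same calls at equal medians.

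Signalling and cytoskeleton terms covered 8 genes, with log2 differences from −2.33 to −1.57 and a median of −1.98. ENSGALG00000001876, with GTPase activator activity, had the highest level among them, at 14.5 and 10.5 FPKM in LPS libraries, against 62.4 and 44.4 FPKM in control libraries (−2.0). ENSGALG00000009237, annotated to the Toll-like receptor 2 signalling pathway, which senses bacterial lipoproteins, had 0.991 and 1.19 FPKM in LPS libraries, against 8.98 and 6.39 FPKM in control libraries (−2.04). Of the 11 other tested genes with that term, 1 was called lower (MAPK9, −1.01) and 6 higher, also at equal medians. The highest of the 6 were TNIP2 (4.87), an inhibitor of NF-kB activation, RIPK2 (3.48), a kinase of innate sensing, and the NF-kB subunit NFKB1 (1.97).

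ENSGALG00000010550, with GTP binding, had 1.88 and 1.48 FPKM in LPS libraries, against 11.9 and 13 FPKM in control libraries (log2 difference −2.33). ENSGALG00000000824, with protein kinase activity, had 3.78 and 3.12 FPKM in LPS libraries, against 15.5 and 16.9 FPKM in control libraries (−1.95). Both kept their libraries within a narrow band in each group. The other 4 were low in both states. ENSGALG00000010439, a structural constituent of the cytoskeleton by its term, had 0.653 and 0.111 FPKM in LPS libraries, against 5.84 and 4.45 FPKM in control libraries (−2.17). ENSGALG00000026460 had 0.247 and 0.989 FPKM in LPS libraries, against 3.77 and 3.57 FPKM in control libraries (−1.57). ENSGALG00000001536 (cytoskeleton) stood at −1.86 and ENSGALG00000005498 (signal transduction) at −1.71.

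Terms for binding of nucleic acid or zinc covered 4 genes, with log2 differences from −2.26 to −1.68. ENSGALG00000011349, with sequence-specific DNA binding, had 2.19 and 2.60 FPKM in LPS libraries, against 18.5 and 12.6 FPKM in control libraries (−2.26). ENSGALG00000026919, with zinc ion binding, had 3.27 and 4.72 FPKM in LPS libraries, against 21.1 and 20.1 FPKM in control libraries (−2.13). ENSGALG00000023742, annotated to the aryl hydrocarbon receptor complex, a sensor of foreign aromatic compounds, had 0.391 and 0.575 FPKM in LPS libraries, against 4.53 and 5.31 FPKM in control libraries (−2.0). The 2 other tested entries of that complex differed in direction, with the unnamed ENSGALG00000004322 called lower (−1.29) and AHR, the receptor itself, called higher (0.64), also at equal medians. ENSGALG00000004322 lies 671 bases from ENSGALG00000023742 on the same strand, and whether both entries belong to 1 gene was not tested. ENSGALG00000028322, with nucleic acid binding, stood at −1.68.

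**Figure D3:**
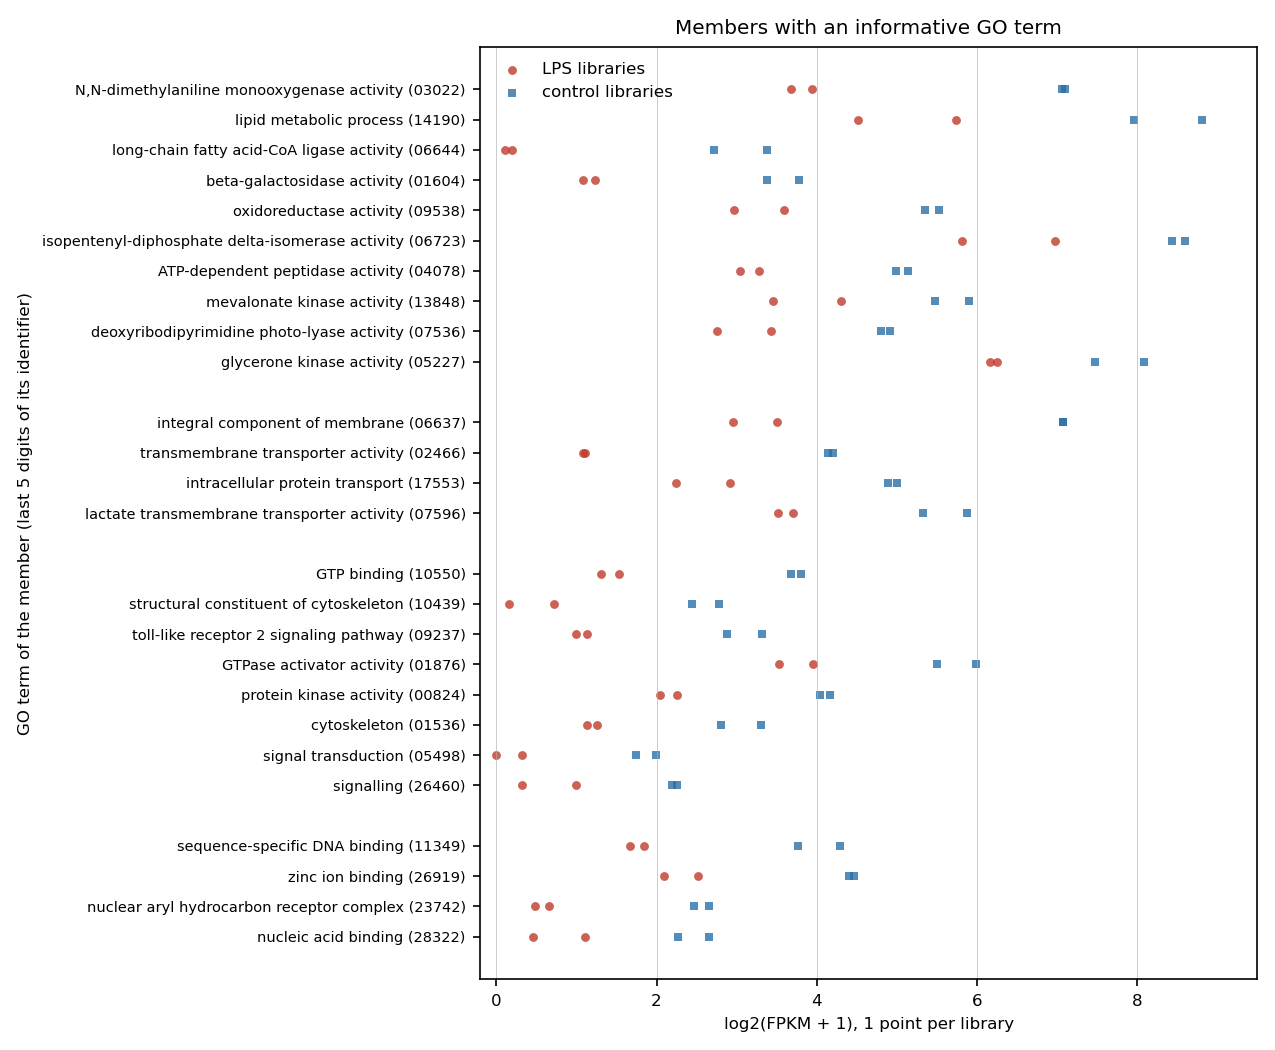
log2(FPKM + 1) in each LPS (red circles) and control (blue squares) input library for the 26 genes with an informative GO term, 1 line per gene, in 4 blocks from top to bottom for enzymes, membrane and transport, signalling and cytoskeleton, and nucleic acid or zinc binding. In each line both red points lie left of both blue points, as the choice of genes requires, and the widest gap is that of the gene with the membrane term (−3.85).

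Of the 6 genes with protein binding alone, ENSGALG00000021693 had 21.2 and 27.2 FPKM in LPS libraries, against 151 and 177 FPKM in control libraries (log2 difference −2.72). It lies on chromosome 28 at 799629 to 800384, on the minus strand and 13786 bases from ENSGALG00000026541, the gene with the largest fall. ENSGALG00000028551 had 9.79 and 7.79 FPKM in LPS libraries, against 58.3 and 44.2 FPKM in control libraries (−2.41). ENSGALG00000024035 stood at −1.80 and ENSGALG00000003644 at −1.76.

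ENSGALG00000005204, the last of the 6, had a value that depended strongly on single libraries. It had 107 and 31.7 FPKM in LPS libraries, against 229 and 150 FPKM in control libraries (log2 difference −1.65). Leaving out LPS library 1 gave a difference of −2.51, and leaving out LPS library 2 gave −0.79. The limma call was lost without control library 1 (adjusted p = 0.156) and without control library 2 (adjusted p = 0.0658).

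Among the 26 genes without a GO term, log2 differences ran from −3.56 to −1.50 with a median of −1.90. Their mean levels lay between 0.105 and 43.6 FPKM in LPS liver, against 2.87 to 142 FPKM in control liver. ENSGALG00000023180 was the highest, at 45.3 and 41.9 FPKM in LPS libraries, against 149 and 135 FPKM in control libraries (−1.68). ENSGALG00000004703 had 0.216 and 0.151 FPKM in LPS libraries, against 13.1 and 5.36 FPKM in control libraries (−3.0), and is 1 of the 2 genes whose control libraries were more than 2-fold apart. ENSGALG00000028194 had 11 and 3.75 FPKM in LPS libraries, against 20.5 and 42.6 FPKM in control libraries (−2.02). Its difference was −1.35 without LPS library 2, and its call was lost without control library 2 (limma adjusted p = 0.0736, log2 difference −1.51).

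ENSGALG00000003838 (−2.38), ENSGALG00000023245 (−2.21), ENSGALG00000016441 (−2.16), ENSGALG00000004854 (−2.04) and ENSGALG00000023409 (−2.01) also stood at −2 or beyond without a GO term. ENSGALG00000027626 (−1.91), ENSGALG00000001166 (−1.89), ENSGALG00000023265 (−1.70), ENSGALG00000023068 (−1.65), ENSGALG00000020463 (−1.62), ENSGALG00000021171 (−1.61), ENSGALG00000028649 (−1.56) and ENSGALG00000023719 (−1.55) stood between −2 and −1.5.

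Just inside the threshold lay ENSGALG00000027596 (log2 difference −1.54), ENSGALG00000026845 (−1.52) and ENSGALG00000026959 (−1.50). Just outside lay the unnamed ENSGALG00000023084 (−1.48), ENSGALG00000022857 (−1.45) and ENSGALG00000001035 (−1.45), each described as an uncharacterized protein. ENSGALG00000026845 had 4.40 and 4.59 FPKM in LPS libraries, against 14.0 and 15.5 FPKM in control libraries. ENSGALG00000023084 had 3.35 and 1.56 FPKM in LPS libraries, against 6.36 and 10.8 FPKM in control libraries, so no gap separates the genes on either side of the threshold.

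Replicate libraries did not lie equally close in both states. The LPS libraries were more than 2-fold apart in 16 of the 59 genes (27.1%), and the control libraries in 2 (3.39%). Over all tested genes these shares were 5.34% for the LPS libraries and 5.69% for the control libraries. The choice favours low LPS values, and the part of level in these shares was not tested. With an LPS mean under 1 FPKM the LPS libraries were that far apart in 9 of 19 of these genes, against 23.9% of all tested genes. With an LPS mean of 1 FPKM or more the figures were 7 of 40, against 4.17% of all tested genes. LPS library 2 was the lower of the LPS libraries in 36 genes and LPS library 1 in 23, while over all tested genes LPS library 2 was the lower in 53.3%. Control library 1 was the lower of the control libraries in 27 genes and control library 2 in 32.

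The m6A peaks were deposited as 1 list for each state, called on IP against input, so there is no replicate of a peak and no test of a difference between the lists. Fold enrichment, the ratio of IP to input in a peak, is the authors' own value. By the authors' gene identifiers, 13 of the 59 genes had a peak in the LPS list (22.0%), against 37 in the control list (62.7%). All 13 had peaks in both lists, 24 had one in the control list alone, 0 in the LPS list alone and 22 in neither. The counts include peaks of ENSGALG00000026845, ENSGALG00000026959 and ENSGALG00000027614 that were annotated to an exon of another gene. They also include peaks of ENSGALG00000025113 whose exon blocks lie outside its annotated stretch.

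The LPS list held 15 peaks of these genes and the control list 59. In the control list 21 genes had 1 peak, 12 had 2, 2 had 3 and 2 had 4. The 2 genes with 4 control peaks and no LPS peak were the transporter ENSGALG00000002466, whose peaks had fold enrichments from 2.57 to 20.8, and ENSGALG00000026460, with 6.66 to 9.69. ENSGALG00000017553 and ENSGALG00000023742 had 3 control peaks each, with fold enrichments of up to 5.19 and 13.8, and no LPS peak either.

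Over all 9484 tested genes, 41.0% had an LPS peak and 50.5% a control peak. Over the 926 tested unnamed genes the shares were 36.7% with an LPS peak and 44.9% with a control peak. The 439 genes with a symbol that met the same conditions on level had an LPS peak in 34.6% and a control peak in 67.0%. The 62 unnamed genes of the mirrored rule had an LPS peak in 46.8% and a control peak in 24.2%. In each of these selected sets the smaller share was that of the state with less RNA.

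Of the genes with a control peak, 35.1% of the 59-gene set also had an LPS peak, against 51.0% of the 439 genes with a symbol and 74.7% of all tested genes. Where the LPS mean was 5 FPKM or more, the share was 37.5% (6 of 16 genes), against 67.6% of the genes with a symbol and 85.0% of all genes. Where it was under 5 FPKM, the share was 33.3%, against 36.1% and 50.6%. Within these bands the sets were not matched on level, and the differences between the shares were not tested.

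All 15 LPS peaks overlapped a control peak of the same gene over at least 50% of the bases of the shorter peak, counted in exon blocks. The strongest belonged to ENSGALG00000026541, with a fold enrichment of 161 in the LPS list, against 376 in the control list. The peaks lie in exon 1 of 2, on chromosome 28 at 783078 to 783496 in the LPS list, against 782749 to 783855 in the control list. That peak was listed in LPS liver although the gene's input level there was under 0.2 FPKM, and a ratio over so low an input has a small denominator.

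ENSGALG00000027621, a gene with 1 exon, was next, with a fold enrichment of 103 in the LPS list, against 42.8 in the control list. Its input level was 0.401 and 0.248 FPKM in LPS libraries, against 5.28 and 5.11 FPKM in control libraries (log2 difference −2.23). ENSGALG00000001876, with 16.2 in LPS liver against 12.3 in control liver, and ENSGALG00000014190, with 13.3 against 10.2, also had a higher value in the LPS list. Fold enrichment was higher in the LPS list in these 3 shared peaks, equal in 1 (ENSGALG00000003644, 11.2 in both) and lower in 11.

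Among those 11, the 3′ UTR peak of the DNA-binding ENSGALG00000011349 had 39.7 in the LPS list, against 50.8 in the control list. ENSGALG00000026845 had 1 peak with 11.7 in the LPS list against 33.0 in the control list, and another with 16.1 against 19.3. ENSGALG00000005379 had 6.26 in the LPS list against 12.2 in the control list, ENSGALG00000025113 had 3.01 against 8.11, and ENSGALG00000004078 had 4.36 against 7. The rest of the 11 were the peaks of the lactate transporter ENSGALG00000007596 (2.46 in the LPS list, 4.87 in the control list), the isomerase ENSGALG00000006723 (2.52 and 3.47) and the glycerone kinase ENSGALG00000005227 (3.71 and 4.21 in 1 peak, 3.34 and 3.59 in the other). In each list, both peaks of ENSGALG00000005227 overlapped each other in position, as did both of ENSGALG00000026845. The tallies count them as separate peaks. The median length of the shared peaks was 210 bases in the LPS list, against 449 bases in the control list, and 13 of the 15 were shorter in the LPS list. Over the whole lists, which also hold unshared peaks, the median was 237 bases in the LPS list, against 241 bases in the control list. Length and fold enrichment were not tallied over the shared peaks of all genes, and the part of level in these tallies was not tested.

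**Figure D4:**
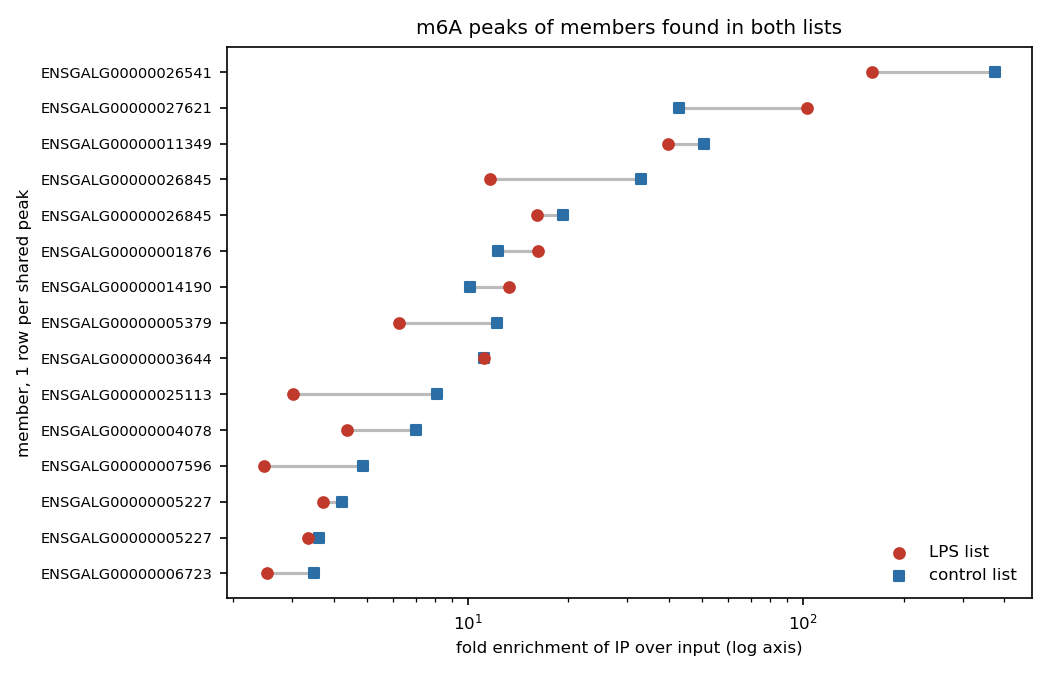
Fold enrichment of IP over input, on a log axis, for the 15 peaks that the 59 genes had in both lists, with red circles for the LPS list and blue squares for the control list, joined by a grey line. The circle lies left of the square in 11 peaks, right of it in 3 and on it in 1, and values run from 2.46 to 161 in the LPS list, against 3.47 to 376 in the control list.

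Of the 15 LPS peaks, 4 were annotated to a 3′ UTR, 1 to a 5′ UTR and 10 to another exon, against 22, 4 and 33 of the 59 control peaks. In the 3′ UTR lay 26.7% of the LPS peaks of these genes, against 37.3% of their control peaks, and 42.2% of the whole LPS list, against 45.2% of the whole control list. In each list the 3′ UTR peak of ENSGALG00000005227 began 74 bases from the annotated gene start and overlapped its 5′ UTR peak, so its annotation is uncertain. The median fold enrichment was 11.2 for the LPS peaks of these genes, against 5.05 for their control peaks, and 4.985 over the whole LPS list, against 5.51 over the whole control list. The medians of these genes cover different peaks, since just 15 of their 59 control peaks were shared. Among the 15 shared peaks fold enrichment was lower in the LPS list in 11, higher in 3 and equal in 1. Control peaks with an edge exactly at the annotated start of the gene made up 16.9% of those of the 59 genes, against 5.89% in the whole control list. Of these, 2 had their other edge exactly at the annotated end (ENSGALG00000016249 and ENSGALG00000020303). Peaks with an edge exactly at the annotated end made up 15.3%, against 15.1% in the whole control list. A control peak of ENSGALG00000025113 and one of ENSGALG00000026845 ran past both annotated ends and are not in these counts. The annotated spans of unnamed genes can be short, and the part of gene length in these shares was not tested.

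Among genes with a peak in the control list alone, ENSGALG00000001166 had the highest fold enrichment, with 28.4 in its 5′ UTR and 17.6 in its 3′ UTR. The authors' peak p-value was much weaker for its 5′ UTR peak (2.8e-08) than for its 3′ UTR peak (1e-141). The nucleic acid-binding ENSGALG00000028322 had 12 and the beta-galactosidase ENSGALG00000001604 had 11.4 in its 3′ UTR. The monooxygenase ENSGALG00000003022 had 5.15 in exon 1 of 8, and the XK-related ENSGALG00000006637 had 5.08 in exon 3 of 3. ENSGALG00000007536, with the photolyase term, had 2.89 in exon 9 of 9, and the fatty acid-CoA ligase ENSGALG00000006644 had 2.99 in exon 19 of 21. ENSGALG00000009538 and the mevalonate kinase ENSGALG00000013848 were the enzymes with a peak in neither list.

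Genome positions were given for genes with a peak, which covers 37 of the 59. They lay on 20 chromosomes, 5 of them on chromosome 4 and 3 each on chromosomes 7, 15, 19 and 28. Within 25 kb of them lay 60 tested genes outside the 59 with a known position, of which 33 (55%) were called lower and 1 (1.67%) higher. At equal medians 18 were called lower and 3 higher. Without that scaling, 33.5% of all 5102 tested genes with a position were called lower and 11.9% higher. Their shares at equal medians were not counted, and the difference between the unscaled shares was not tested.

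An annotated gene on the opposite strand overlapped 5 of the 37, or 13.5%, against 6.92% of the 491 unnamed genes and 4.13% of the 5371 genes with a position. Strand was marked in the libraries, per the labels' protocols, but whether the counting used it is not given in the sources used here. It is thus not known whether reads of such a pair were kept apart. ENSGALG00000027614, on chromosome 19 at 168794 to 292467, contains BAZ1B, a subunit of chromatin remodelling complexes. It had 14.2 and 12.3 FPKM in LPS libraries, against 57.6 and 79.4 FPKM in control libraries (log2 difference −2.27), and BAZ1B had 18.9 and 14.9 FPKM, against 43.9 and 38.1 FPKM (−1.23). Its single control peak was annotated by the authors to an exon of ENSGALG00000028649, another of the 59 genes.

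ENSGALG00000025113 is annotated as a single stretch of 67 bases on chromosome Z at 58205439 to 58205505, within NR2F1, which encodes an orphan nuclear receptor. It had 0.916 and 1.49 FPKM in LPS libraries, against 5.88 and 7.86 FPKM in control libraries (−1.84), and NR2F1 had 2.59 and 4.24 FPKM, against 17.7 and 19.7 FPKM (−2.18). The exon blocks of its peaks held 0 bases of that stretch, and its control peak shared 206 bases with the NR2F1 control peak, whose fold enrichment was 148. In the LPS list NR2F1 had 0 peaks, and the LPS peak of ENSGALG00000025113 had a fold enrichment of 3.01.

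ENSGALG00000005227 lies within VWCE, which had 13.8 and 15.2 FPKM in LPS libraries, against 42.3 and 42.0 FPKM in control libraries (−1.48). ENSGALG00000026845 lies within KANK3, which had 7.23 and 5.87 FPKM in LPS libraries, against 20.2 and 29.4 FPKM in control libraries (−1.76), and its peaks were annotated by the authors to exon 3 of 12 of KANK3. BAZ1B, NR2F1, VWCE and KANK3 were each called lower by limma, also at equal medians. ENSGALG00000026959 overlaps ADRB1, the beta-1 adrenergic receptor, and its control peak shared 476 bases with that of ADRB1 (fold enrichments 11 and 11.7). ADRB1 was listed at 0 and 1.14 FPKM in LPS libraries and at 0 in both control libraries, while ENSGALG00000026959 had 0.708 and 0.983 FPKM in LPS libraries, against 5.25 and 3.34 FPKM in control libraries.

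**Figure D5:**
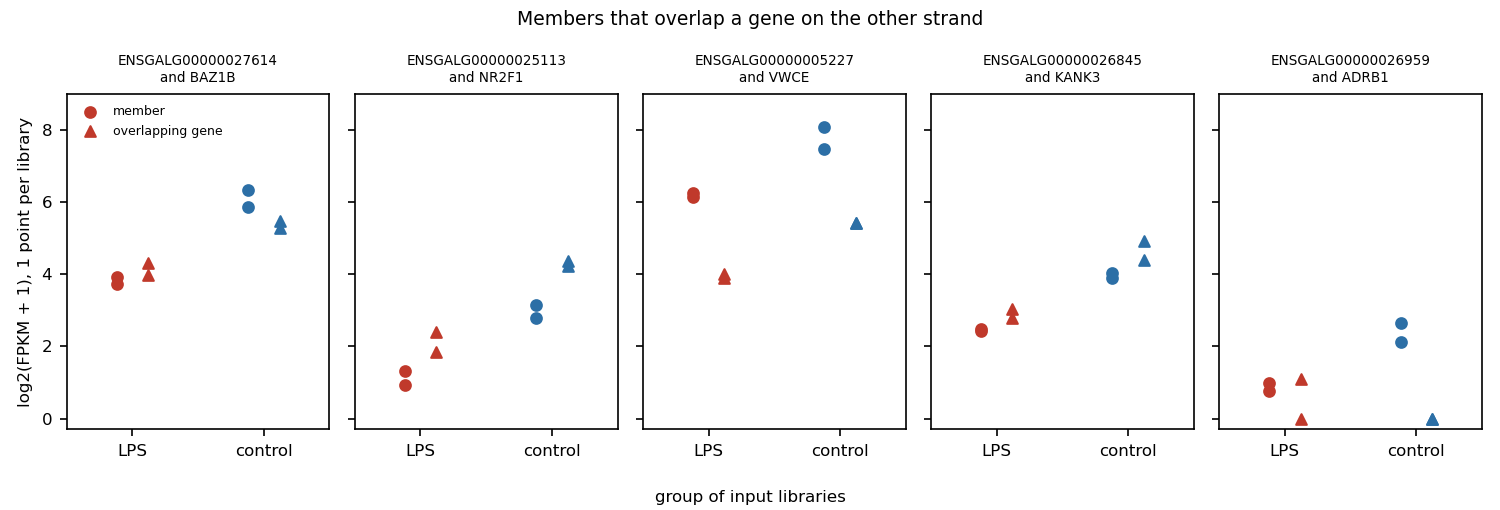
log2(FPKM + 1) in each LPS (red) and control (blue) input library for the 5 genes that overlap an annotated gene on the other strand (circles) and for that gene (triangles), 1 panel per pair. In 4 panels circles and triangles are both lower in LPS liver, while ADRB1 in the last panel is listed at 0 in 3 of the 4 libraries.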

How the data were processed

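Gene levels were taken from the 4 input libraries (LPS and control, 2 each), for which the authors deposited FPKM values per gene; FPKM are not counts. Columns headed as treated were taken to be LPS, since the labels name no other treatment. The authors also deposited 1 list of m6A peaks per state, with the IP to input ratio (fold enrichment) and the p-value of each peak; 1 exact repeat was dropped from each list, which left 5938 LPS and 7813 control peaks. ChIPseeker, HOMER, StringTie and HISAT2 are listed as tools, per the submitters' processing notes, with no role stated. The genome build and filters were not stated in the sources used here. The IgG control of the protocol was not used here.

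The 9484 genes that averaged 1 FPKM or more were compared on log2(FPKM + 1), 2 libraries against 2, with limma 3.58.1 in R 4.3.3 (trended prior variance, two-sided, Benjamini-Hochberg adjusted p under 0.05); the procedure was tested on simulated data. Peaks were matched to genes by the authors' identifiers in Python 3.11.15 with pandas 2.3.3, and counted as shared where at least 50% of the shorter peak's exon-block bases overlapped. The identifiers had no match in a RefSeq table of another assembly, so names are those of the table. Named with values were the 12 genes with the highest control mean, the 12 with the largest fall, those with a description, those with a peak in both lists and 3 on each side of the threshold; other genes were named after their values were seen. The 59 genes, the marker lists, the GO classes and the lists of genes with a shared annotation were chosen with earlier results of these data known. Alternatives were other pseudocounts, filters, scaling to equal medians, limma without a trend, a replicate block, leaving out each library, and other limits for peaks. A few items are not reported here.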

Additional observations from a re-analysis of the deposited data

How the results depend on the processing

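With the libraries scaled to equal medians, 1594 genes were called lower in LPS liver in place of 2982. With a filter of 5 FPKM, 37 of the 59 genes were tested, found and called, since fewer genes are tested by construction. With a pseudocount of 0.1 the rule found 111 genes, which include the 59, and with 0.5 it found 84; at equal medians it found 44, all among the 59. Where 50% of the bases of both peaks had to overlap, and not just of the shorter, 9 peaks were shared in place of 15. Leaving out 1 library gave 2097 to 2494 genes called lower, 838 to 923 called higher, 57 to 59 of the 59 genes called, and 61 to 75 genes found by the rule, of which 50 to 56 were among the 59. Same-numbered deviations had a correlation of 0.0292 across genes, which with 2 libraries a group cannot show whether the replicate numbers pair the libraries. With the number as a replicate block, 3150 genes were called lower, 1071 higher and 59 of the 59 genes lower. Apart from ENSGALG00000028194, the sole gene of the 59 that lost its call was ENSGALG00000005204, also with no filter (adjusted p = 0.0937) and at equal medians (adjusted p = 0.0603); its adjusted p in the settings that ended its call ran from 0.0603 to 0.156. None of the 59 changed direction under any of these settings. Limits on peak strength (fold enrichment of 4 or more, p under 1e-10) left 9 and 11 of the 13 genes with an LPS peak, and 26 and 37 of the 37 with a control peak. With 2 libraries a group and no read totals, differences of low genes, and peaks in genes near 0 FPKM, are the least certain.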
